A study of Mus musculus with 15 samples.

Results

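Cells carry a set of proteins that detect RNA or DNA where it should not be. The genes described here are 10 such sensors and adaptors, taken as the rows named Ifih1, Ddx58, Dhx58, Mavs, Cgas, Sting1, Zbp1, Eif2ak2, Trim25 and Tlr3, and all 10 were found in both deposited expression tables, which list 54343 genes (MC38) and 55303 genes (B16-F10). The gene for RIG-I is written Ddx58 in these tables. The data are polyA RNA sequencing of 15 libraries from 2 mouse tumour lines with raised or edited Ssbp4, which belongs to a family of proteins that bind single-stranded DNA. The series title ties the gene to tumour immune evasion and cholesterol synthesis.

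The MC38 groups were 3 libraries of cells stably transduced with Ssbp4 cDNA in the retroviral vector pMSCV-IRES-EGFP (OE) and 4 libraries labelled wild type (WT). The labels name no group with the empty vector. Effects of Ssbp4, of transduction or EGFP, and of any other difference between the transduced and WT cells cannot be told apart in MC38. The B16-F10 groups were 4 libraries of cells electroporated with Cas9 and a mixture of guide RNAs against Ssbp4 (KO) and 4 libraries labelled wild type, whose cells, per the protocol, were given a control guide to an intergenic site on chromosome 2. The labels do not say that the edited cells were cloned. Separate cultures are not mentioned for the libraries within a group, and p-values therefore cover library-to-library spread that may be technical.

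The helicases RIG-I (Ddx58) and MDA5 (Ifih1) bind viral or misplaced double-stranded RNA in the cytosol and signal through MAVS, an adaptor on mitochondria. The enzyme cGAS binds DNA and makes a cyclic dinucleotide that activates STING on the endoplasmic reticulum. Both routes lead to the kinase TBK1, to the transcription factor IRF3 and to type I interferon, and interferon in turn raises transcription of many sensors through the interferon-stimulated response element. Of the members, Tlr3 encodes a receptor that detects double-stranded RNA inside endosomes and not in the cytosol.

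Values are FPKM, a fragment count scaled by gene length and library size, so levels of different genes can be compared per length. Depth, estimated from the spacing of low values, was 32.5 to 48.7 M fragments per library. Ssbp4 averaged 534 ± 63.5 FPKM in MC38 OE and 16.3 ± 2.05 FPKM in MC38 WT (SD, n = 3 and 4), and 22.1 ± 2.29 FPKM in B16-F10 KO and 34.5 ± 2.37 FPKM in B16-F10 WT (SD, n = 4 each). The melanocyte genes Mlana, Tyr, Dct, Pmel, Tyrp1 and Mitf summed to between 10826 and 13979 FPKM in B16-F10, whereas in MC38, a colon carcinoma line whose tissue label reads melanoma, they summed to at most 2.09 FPKM. Of 6 epithelial markers in MC38, Krt8 averaged 9.45 FPKM in OE and 3.22 FPKM in WT, Krt18 averaged 0.0607 FPKM in OE and 3.23 FPKM in WT, and Epcam, Krt19, Cdh1 and Cdx2 each averaged under 1 FPKM in both groups. Leukocyte markers, 10 in number, summed to at most 0.610 FPKM in any MC38 library and 0.791 FPKM in any B16-F10 library, with 5 and 7 of them at 0 throughout. Wild-type B16-F10 libraries 3 and 4 stood apart from libraries 1 and 2: on the first principal component they lay at 17.8 and 17.8, against -9.42 and -10.3, with KO libraries between -7.81 and -1.91. For 72.2% of tested genes libraries 3 and 4 were both above or both below libraries 1 and 2, and this held for all 10 members (8 above, 2 below).

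The first question was how sensor transcripts differed between OE and WT libraries of MC38. All but the adaptor gene Mavs and the DNA sensor gene Cgas rose with overexpression, 8 of 10 members, and in each of these 8 every OE library lay above every WT library. On the log2(FPKM + 1) scale the largest difference was that of Zbp1, followed by Dhx58 and Ddx58, and the smallest of these 8 was that of Trim25. By ratio of means Tlr3 (2.04) stood just above Ddx58 (2.01). All 10 passed the filter of a mean of 1 FPKM over the line, Zbp1 and Dhx58 only through the OE libraries, since both averaged under 1 FPKM in WT. Across all 10748 tested genes 47.5% passed an adjusted p of 0.05 (limma, Benjamini-Hochberg), 23.9% higher and 23.6% lower in OE, and 50.6% had groups that did not overlap, 25.5% with every OE library above every WT library and 25.1% below. In bulk RNA, a change in the share of cells with a transcript and a change in its level per cell cannot be told apart. The median log2 difference was 0.70 over the members and -0.01 over all tested genes. The 8 members also passed in the fit without a filter on low values, where 21.0% of 23483 genes passed.

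**Figure D1:**
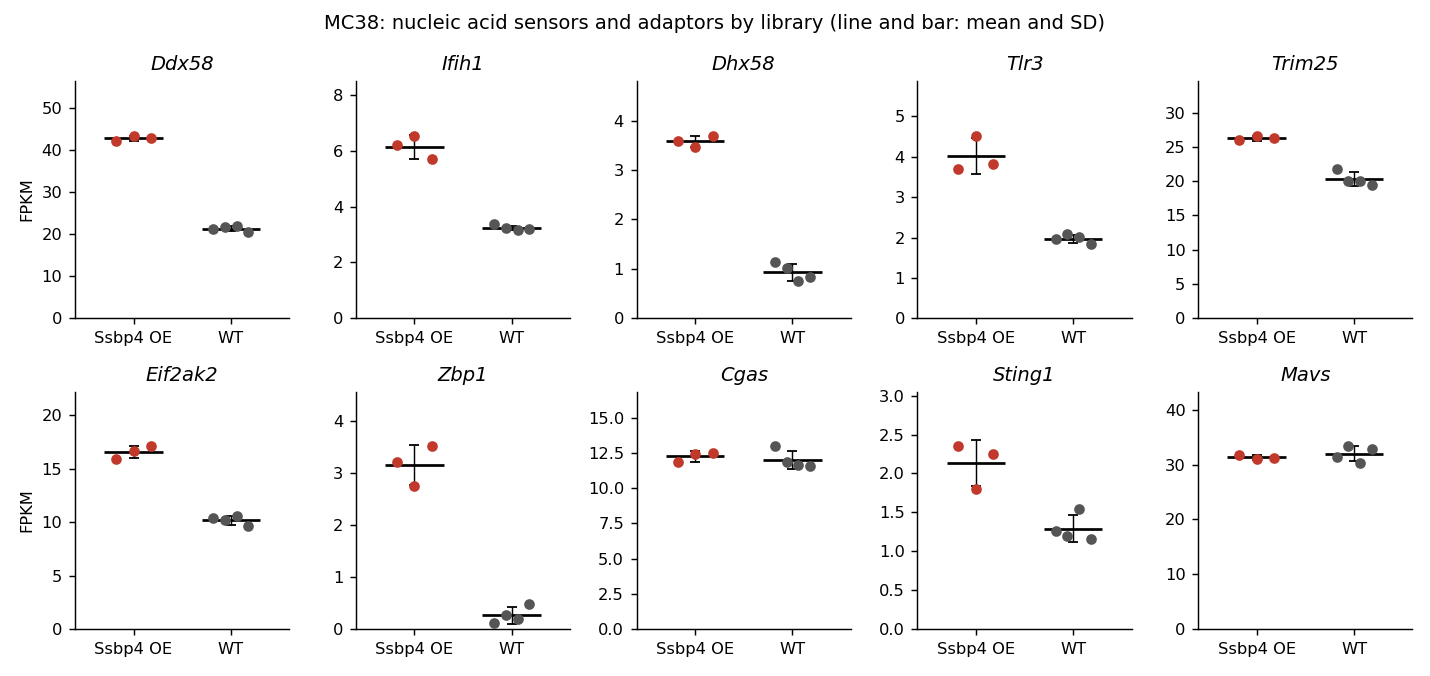
Level of each member in FPKM in the 3 Ssbp4 OE and 4 WT libraries of MC38; points are libraries, lines and bars are mean and SD, and each panel has its own axis from 0. OE libraries lie above all WT libraries in 8 panels and overlap them for Cgas and Mavs.

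Among the RNA helicases, Ddx58 had 42.2, 43.5 and 42.9 FPKM in OE libraries, against 21.3, 21.7, 22.0 and 20.5 FPKM in WT libraries. The groups were far apart and each was tight, and the OE mean was 2.01 times the WT mean. On the log2(FPKM + 1) scale used for all tests, which understates the change of low genes, its difference was 0.97 (SE 0.04, adjusted p = 3.37e-08 by limma). Ifih1 had 6.21, 6.54 and 5.70 FPKM in OE libraries and 3.37, 3.22, 3.17 and 3.19 FPKM in WT libraries. Its log2 difference was 0.75 (SE 0.06, adjusted p = 6.15e-06 by limma), with the lowest OE library at 1.69 times the highest WT library. Dhx58 encodes LGP2, a helicase without the signalling domains of the other helicases that modulates MDA5 and RIG-I. It stood at 3.58, 3.46 and 3.69 FPKM in OE libraries and at 1.14, 1.01, 0.745 and 0.826 FPKM in WT libraries, a ratio of means of 3.86 and a log2 difference of 1.25 (SE 0.08, adjusted p = 1.51e-06 by limma). With these changes Ddx58 was the most abundant member in OE cells, at 42.8 FPKM and above Mavs in all 3 libraries, whereas in WT cells Mavs exceeded it in all 4.

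Trim25, a ubiquitin ligase linked to RIG-I activation, had 26.0, 26.6 and 26.2 FPKM in OE libraries and 21.8, 20.1, 20.00 and 19.4 FPKM in WT libraries. This was the smallest of the called changes, a log2 difference of 0.36 (SE 0.05, adjusted p = 0.00012 by limma). Tlr3 had 3.70, 4.52 and 3.83 FPKM in OE libraries and 1.95, 2.08, 2.00 and 1.85 FPKM in WT libraries. It rose by 0.75 on the log2 scale (SE 0.08, adjusted p = 2.42e-05 by limma), close in size to Ifih1.

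Eif2ak2 encodes PKR, the kinase that on binding double-stranded RNA phosphorylates the translation factor eIF2-alpha. It had 15.9, 16.7 and 17.1 FPKM in OE libraries, against 10.4, 10.2, 10.6 and 9.62 FPKM in WT libraries. The log2 difference was 0.65 (SE 0.05, adjusted p = 3.31e-06 by limma). Zbp1, which binds left-handed Z-form nucleic acid and can start necroptosis, had 3.21, 2.75 and 3.51 FPKM in OE libraries, against 0.110, 0.271, 0.188 and 0.483 FPKM in WT libraries, where it was the least abundant member. The OE mean was 12.0 times the WT mean and the log2 difference 1.72 (SE 0.11, adjusted p = 1.07e-06 by limma). The log2 value understates this ratio because 1 FPKM is added to each level before the logarithm.

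Of the DNA-sensing pair, Sting1 rose and Cgas did not pass. Sting1 had 2.35, 1.80 and 2.25 FPKM in OE libraries and 1.26, 1.20, 1.55 and 1.16 FPKM in WT libraries. Its lowest OE library lay above the highest WT library, and its log2 difference was 0.45 (SE 0.09, adjusted p = 0.00257 by limma). Cgas had 11.8, 12.4 and 12.5 FPKM in OE libraries and 13.0, 11.9, 11.7 and 11.6 FPKM in WT libraries, which overlap. Its log2 difference was 0.03, with a 95% interval from -0.09 to 0.14 (adjusted p = 0.703 by limma). Mavs had 31.8, 31.0 and 31.2 FPKM in OE libraries and 31.4, 33.3, 30.3 and 32.9 FPKM in WT libraries, also overlapping. Its log2 difference was -0.03, with a 95% interval from -0.12 to 0.06 (adjusted p = 0.603 by limma). These intervals, not adjusted for the number of genes, leave out a change of the size of the smallest called member.

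Markers of other cell types moved with overexpression in MC38 as well, beside 25.5% of all tested genes wholly above WT and 25.1% wholly below. The fibroblast markers Pdgfra, Col1a1 and Dcn, 3 of 3, were higher in every OE library, with a sum of 381 to 389 FPKM in OE and 81.3 to 86.9 FPKM in WT. Dcn averaged 320 FPKM in OE and 65.6 FPKM in WT. Of 6 epithelial markers Krt8 was above WT in every OE library and 4 were below, among them Krt18, with Cdx2 at 0 throughout, and their sum was 8.88 to 10.7 FPKM in OE and 6.60 to 8.85 FPKM in WT. Endothelial markers, 2 of 3 higher, summed to at most 0.287 FPKM in OE and 0.0811 FPKM in WT. Their part in the differences of the sensors was not tested.

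Promoter sequences bear on the members because many are known targets of interferon signalling. RefSeq promoter windows (GRCm38.p6, an earlier build than the GRCm39 of the submitters' processing notes), from 250 bases before to 50 bases after the annotated start, were matched for 7 of the 10 members. They were searched on both strands for the core of the interferon-stimulated response element, GAAA, any 2 bases and GAAA again, and for TTCNNNGAA, the STAT dimer site, which reads the same on both strands; no match of one overlapped a match of the other in the windows of the members. The first was found in 3.44% and the second in 8.30% of 32851 promoter windows of that length. Among the 7 members the element core was found in Ifih1, Ddx58 and Eif2ak2, all of which rose, and the letters were not found in the windows of Trim25 and Tlr3, which rose, or of Mavs and Cgas, which did not pass. The only STAT dimer match was in Eif2ak2, at positions -178 to -170 counted from the start. The 3 windows with a match and the windows of both members that did not pass are shown 5′ to 3′ on the strand of the gene, with the element core in capitals.
Ifih1, chr2:62646206-62646505, minus strand: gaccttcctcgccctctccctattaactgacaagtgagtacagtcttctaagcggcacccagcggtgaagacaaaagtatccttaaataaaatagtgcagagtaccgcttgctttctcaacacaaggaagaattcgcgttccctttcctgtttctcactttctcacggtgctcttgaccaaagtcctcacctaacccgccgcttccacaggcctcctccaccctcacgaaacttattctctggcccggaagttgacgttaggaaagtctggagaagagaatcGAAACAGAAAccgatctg
Ddx58, chr4:40239776-40240075, minus strand: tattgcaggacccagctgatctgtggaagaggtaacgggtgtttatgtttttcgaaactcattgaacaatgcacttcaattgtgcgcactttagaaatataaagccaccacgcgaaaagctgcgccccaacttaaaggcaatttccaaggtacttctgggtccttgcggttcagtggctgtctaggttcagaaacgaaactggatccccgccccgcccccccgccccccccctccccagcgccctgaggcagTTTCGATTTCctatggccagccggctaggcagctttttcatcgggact
Eif2ak2, chr17:78882523-78882822, minus strand: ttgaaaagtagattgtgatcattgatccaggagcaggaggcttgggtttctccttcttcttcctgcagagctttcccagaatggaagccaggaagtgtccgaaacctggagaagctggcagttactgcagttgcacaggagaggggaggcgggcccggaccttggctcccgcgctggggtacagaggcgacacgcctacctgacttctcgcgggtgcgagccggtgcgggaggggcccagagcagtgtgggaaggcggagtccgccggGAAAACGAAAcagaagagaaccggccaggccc
Mavs, chr2:131233813-131234112, plus strand: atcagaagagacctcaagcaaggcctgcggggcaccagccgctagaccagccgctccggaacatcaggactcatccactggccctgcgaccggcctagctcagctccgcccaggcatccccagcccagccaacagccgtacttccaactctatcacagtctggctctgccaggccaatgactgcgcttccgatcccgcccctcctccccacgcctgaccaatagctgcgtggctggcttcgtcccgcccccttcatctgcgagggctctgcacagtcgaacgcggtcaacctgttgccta
Cgas, chr9:78443188-78443487, minus strand: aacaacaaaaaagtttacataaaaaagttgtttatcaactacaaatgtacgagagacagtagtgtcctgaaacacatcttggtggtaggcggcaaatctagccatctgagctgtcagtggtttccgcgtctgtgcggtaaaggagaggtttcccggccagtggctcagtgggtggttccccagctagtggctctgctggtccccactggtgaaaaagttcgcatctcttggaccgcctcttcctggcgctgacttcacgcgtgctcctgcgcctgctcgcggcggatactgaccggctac
The 3 matches of the element core lay just after the annotated start, beginning 32 bases after it in Ifih1, 2 in Ddx58, where the match is on the opposite strand, and 18 in Eif2ak2. A match of letters is a description of the window and not evidence that a factor binds there.

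The second question was how sensor transcripts differed between KO and WT libraries of B16-F10. None of the 6 members with a mean of at least 1 FPKM passed (0 higher, 0 lower), and Ifih1, Dhx58, Trim25 and Zbp1 were under that filter. The members whose groups did not overlap were Trim25, which was not tested under the filter, Cgas and Tlr3, which lay lower in every KO library than in any WT library. Of all 10902 tested genes 2.23% passed (243 genes by limma, 2325 at an unadjusted p under 0.05), 1.33% higher and 0.899% lower, and 13.9% had groups that did not overlap, 8.53% with every KO library above every WT library and 5.32% below. At an unadjusted p under 0.05 there were 3 of the 6 tested members, Cgas, Tlr3 and Sting1. The median log2 difference was 0.03 over the 6 tested members and 0.02 over all tested genes.

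**Figure D2:**
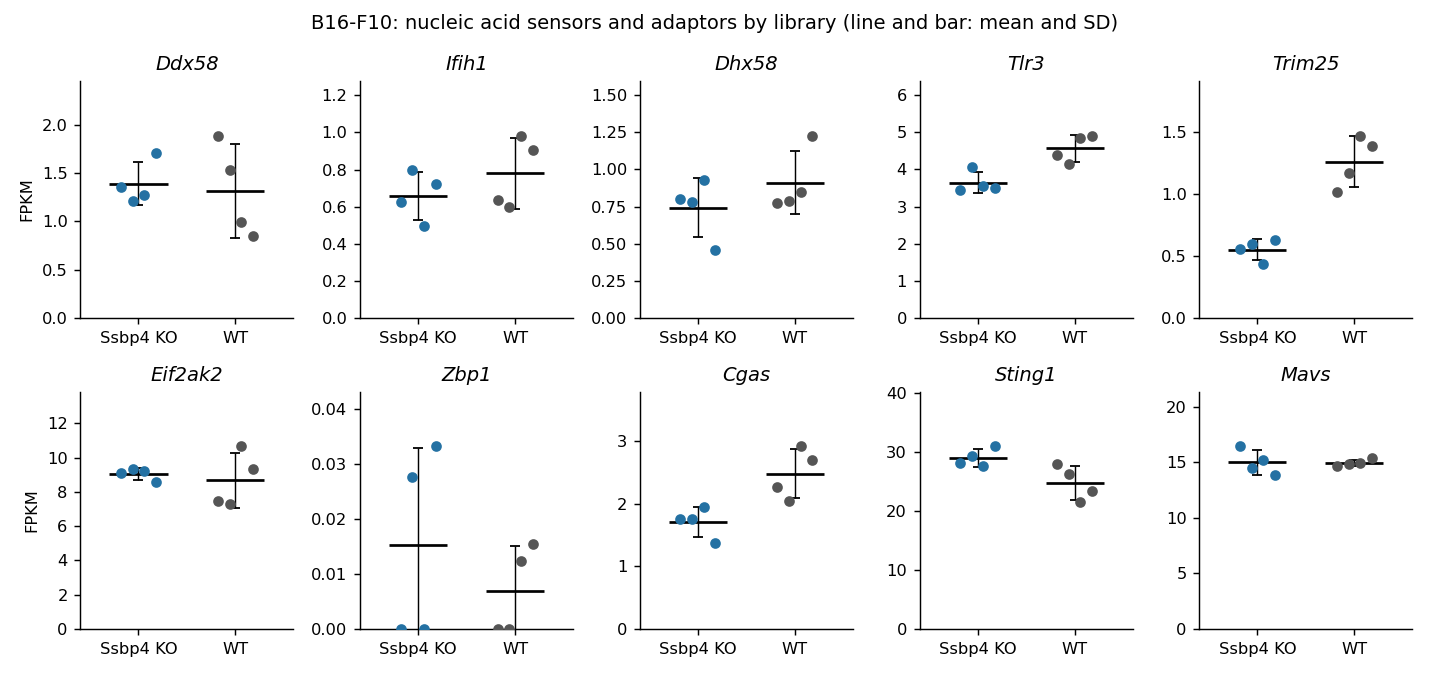
Level of each member in FPKM in the 4 Ssbp4 KO and 4 WT libraries of B16-F10; points are libraries in order of their number, lines and bars are mean and SD, and each panel has its own axis from 0. KO libraries lie below all WT libraries for Trim25, Cgas and Tlr3 and overlap them in the other panels.

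Trim25 had 0.553, 0.595, 0.432 and 0.626 FPKM in KO libraries, against 1.01, 1.17, 1.47 and 1.38 FPKM in WT libraries. The groups did not overlap, and the KO mean was 0.439 of the WT mean. In the fit without a filter, in which 0.314% of 23264 genes passed, Trim25 had a log2 difference of -0.54 (SE 0.08, adjusted p = 0.0481 by limma). That call was lost when any 1 library was left out, with adjusted p between 0.0527 (without KO library 4) and 0.158 (without KO library 3).

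Cgas had 1.76, 1.76, 1.94 and 1.37 FPKM in KO libraries and 2.28, 2.04, 2.92 and 2.71 FPKM in WT libraries. Its log2 difference was -0.36 (95% interval -0.59 to -0.13, not adjusted), and it did not pass (adjusted p = 0.0887 by limma). Sting1, which acts downstream of it, had 28.1, 29.3, 27.6 and 30.9 FPKM in KO libraries and 28.0, 26.3, 21.5 and 23.4 FPKM in WT libraries. The groups overlapped through WT library 1 alone, and the log2 difference of 0.22 did not pass (95% interval 0.04 to 0.40, adjusted p = 0.157 by limma). Tlr3 had 3.45, 4.07, 3.55 and 3.50 FPKM in KO libraries and 4.38, 4.16, 4.83 and 4.90 FPKM in WT libraries. Its log2 difference was -0.26 (95% interval -0.42 to -0.10), with adjusted p = 0.0798 by limma. Leaving out 1 library at a time, the adjusted p was 0.0722 to 0.198 for Cgas and 0.0801 to 0.206 for Tlr3. For Trim25, Cgas and Tlr3 alike, WT libraries 3 and 4, which stood apart, were both above WT libraries 1 and 2. That the KO libraries also lay below libraries 1 and 2 follows from the lack of overlap. The gap there was narrow for Cgas (1.94 against 2.04 FPKM) and Tlr3 (4.07 against 4.16 FPKM). The part of the split between WT libraries in these differences was not tested.

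The remaining members overlapped between the B16-F10 groups. Ddx58 had 1.36, 1.21, 1.27 and 1.71 FPKM in KO libraries and 1.88, 1.53, 0.989 and 0.849 FPKM in WT libraries, so that the WT libraries spanned more than the KO libraries. Its interval on the log2 scale, -0.26 to 0.39, is wide enough to hold changes of either sign (adjusted p = 0.841 by limma). Eif2ak2 had 9.10, 9.32, 9.21 and 8.56 FPKM in KO libraries and 7.46, 7.28, 10.7 and 9.32 FPKM in WT libraries, with a log2 difference of 0.07 (95% interval -0.17 to 0.30). Mavs was even across the line, at 16.4, 14.4, 15.2 and 13.9 FPKM in KO libraries and 14.7, 14.8, 14.9 and 15.3 FPKM in WT libraries (log2 difference 0.0038, 95% interval -0.12 to 0.13). Ifih1 had 0.497 to 0.798 FPKM in KO libraries and 0.599 to 0.982 FPKM in WT libraries, and Dhx58 had 0.460 to 0.931 FPKM and 0.776 to 1.23 FPKM. Without a filter Ifih1 had a log2 difference of -0.10 and Dhx58 of -0.13 (adjusted p = 0.707 and 0.699 by limma). Zbp1 was listed at 0 in KO libraries 1 and 3 and in WT libraries 1 and 2, and its highest value was 0.0332 FPKM, in a KO library.

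**Figure D3:**
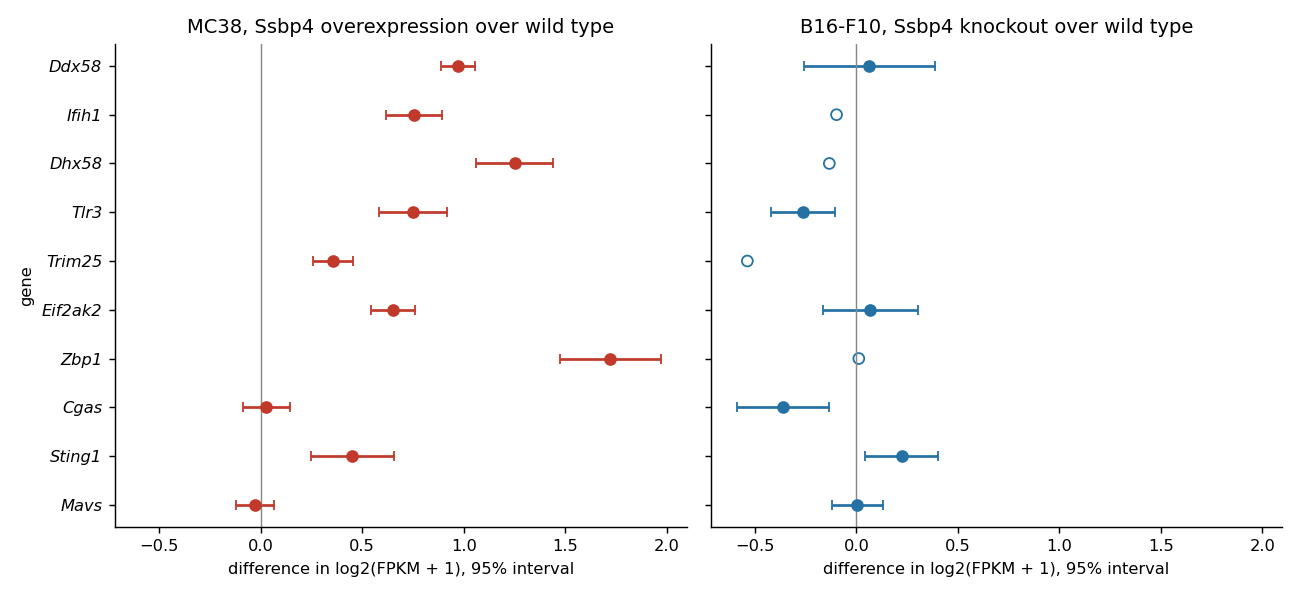
Difference of each member in log2(FPKM + 1) between Ssbp4 OE and WT in MC38 and between Ssbp4 KO and WT in B16-F10, on a common scale. Filled points with bars are limma estimates with 95% intervals not adjusted for the number of genes, and open points are the 4 B16-F10 members under the filter, from the fit without it; 8 of 10 MC38 intervals lie above 0, and in B16-F10 the intervals of Cgas and Tlr3 lie below 0 and that of Sting1 above it.

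Set side by side, the members that rose in MC38 OE had a log2 difference of 0.36 to 1.72 there. In B16-F10 KO the same 8 genes had differences from -0.54 to 0.22, counting the estimates without a filter. Both ranges are on the log2(FPKM + 1) scale, which understates the change of low genes. Ifih1, Dhx58, Trim25 and Zbp1 averaged under 1 FPKM over the B16-F10 line. For Trim25 the ratio of means was 0.439 in B16-F10, KO over WT, and 1.29 in MC38, OE over WT. Overexpression in one line and knockout in another are different contrasts in separately deposited tables, and the difference between them was not tested.

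Wild-type libraries of the lines did not overlap for 8 of the 10 members, 2 of which were higher and 6 lower in B16-F10. The share of all genes without overlap between the lines was not counted, so this is not shown to be particular to the members. The tables were normalised separately, so levels are set side by side and no test was made. Per the protocol the wild-type B16-F10 cells were given a control guide, and any effect of that handling cannot be told apart from line. In wild-type B16-F10 Sting1 stood first of all members, at 24.8 ± 2.90 FPKM, whereas in wild-type MC38 it stood at 1.29 ± 0.177 FPKM and was eighth (SD, n = 4 each), a ratio of means of 19.2. Tlr3 averaged 4.57 ± 0.358 FPKM in wild-type B16-F10 and 1.97 ± 0.0984 FPKM in wild-type MC38. These are the 2 genes that were higher in B16-F10. Ddx58 averaged 1.31 ± 0.481 FPKM in wild-type B16-F10 and 21.4 ± 0.654 FPKM in wild-type MC38, and Trim25 1.26 ± 0.206 FPKM and 20.3 ± 1.02 FPKM, so that the MC38 level was 16.3 and 16.2 times that of B16-F10. Cgas averaged 2.49 ± 0.398 FPKM in wild-type B16-F10 and 12.0 ± 0.640 FPKM in wild-type MC38. Mavs averaged 14.9 ± 0.299 FPKM in B16-F10 and 32.0 ± 1.38 FPKM in MC38, and Ifih1 0.780 ± 0.191 FPKM and 3.24 ± 0.0869 FPKM. Zbp1 was listed at 0 in 2 of 4 B16-F10 libraries and at up to 0.0154 FPKM in the others, against 0.110 to 0.483 FPKM in MC38. The lines overlapped for Eif2ak2, at 8.68 ± 1.61 and 10.2 ± 0.417 FPKM in B16-F10 and MC38, and for Dhx58, at 0.911 ± 0.213 and 0.928 ± 0.176 FPKM.

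Within wild-type B16-F10 the levels ran in the order Sting1, Mavs, Eif2ak2, Tlr3, Cgas, Ddx58, Trim25, Dhx58, Ifih1 and Zbp1. Neighbours were separate in every library down to Ddx58, whereas the ranges of Ddx58 and Trim25, of Trim25 and Dhx58 and of Dhx58 and Ifih1 overlapped. Within wild-type MC38 the order was Mavs, Ddx58, Trim25, Cgas, Eif2ak2, Ifih1, Tlr3, Sting1, Dhx58 and Zbp1, and only Ddx58 and Trim25 overlapped. The sum of all members was 147 to 149 FPKM in MC38 OE libraries and 102 to 106 FPKM in MC38 WT libraries, and 60.6 to 62.3 FPKM in B16-F10 KO libraries and 58.7 to 61.0 FPKM in B16-F10 WT libraries.

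**Figure D4:**
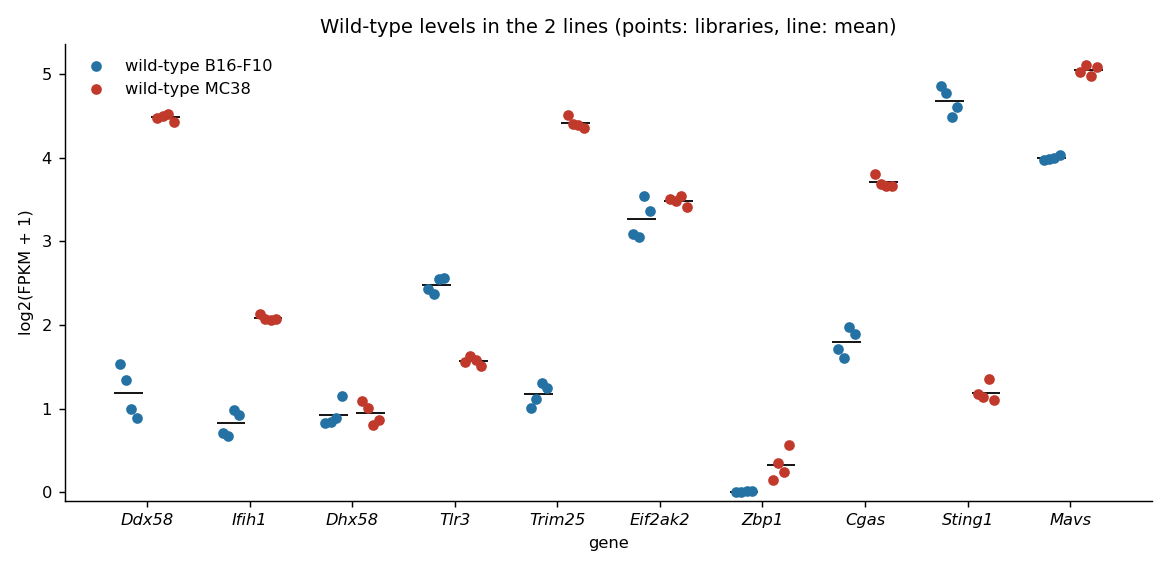
Wild-type level of each member as log2(FPKM + 1) in 4 B16-F10 and 4 MC38 libraries; points are libraries and lines are means. Sting1 and Tlr3 are higher in B16-F10, Eif2ak2 and Dhx58 overlap, and the other 6 members are lower in B16-F10.

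The wider pathway was followed in 7 lists of 120 genes: regulators of the RIG-I-like receptors, regulators of DNA sensing, kinases with scaffolds and transcription factors, endosomal TLR machinery, partners of PKR and of the OAS enzymes, death pathway partners of ZBP1, and interferons with receptors and output cytokines. In MC38 94 of the 120 genes were tested, of which 32 rose, 25 fell and 37 did not pass, beside 47.5% of all tested genes called. The median log2 difference over these genes was 0.01, against -0.01 over all tested genes. Of the genes that rose, Ddx60, Irf7, Oas1a, Oas1c and Oas3 averaged under 1 FPKM in WT and so passed the filter only through OE, and of those that fell Casp1 passed it only through WT. These calls also held in the fit without a filter.

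Regulators of the RIG-I-like receptors had 4 of 18 tested genes higher and 6 lower in MC38 OE. Ddx60, a helicase of the antiviral response, rose to 1.70 to 2.02 FPKM in OE libraries, against 0.355 to 0.538 FPKM in WT libraries (log2 difference 1.03, adjusted p = 5.93e-06 by limma). The other changes were small, among them the deubiquitinase Cyld (0.17) and the ligase Itch (0.15) upward, and the RNA-binding Zcchc3 (-0.25), the helicase Dhx15 (-0.16) and the zinc finger antiviral protein Zc3hav1 (-0.15) downward. Cyld did not pass without WT library 3 or 4 or OE library 1 or 2 (adjusted p of up to 0.0806), Itch without WT library 2 or 4 or OE library 2 or 3 (up to 0.104), and Zcchc3 without OE library 2 (0.0674). In the fit without a filter on low values Itch (0.0621) and Zcchc3 (0.0534) also did not pass.

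Genes around cGAS and STING had 4 of 18 higher and 6 lower. The lysosomal DNase gene Dnase2a rose by 0.41, the volume-regulated channel subunit Lrrc8c by 0.37 and the ligase Trim32 by 0.28 on the log2 scale. The exporter Abcc1 fell to 26.7 to 28.0 FPKM in OE libraries, against 36.8 to 40.6 FPKM in WT libraries (-0.48, adjusted p = 1.35e-05 by limma). The folate carrier Slc19a1, which can import cyclic dinucleotides in human cells, fell by 0.43 and the channel subunit Lrrc8a fell by 0.34.

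Kinases, scaffolds and transcription factors had 9 of 21 higher and 6 lower. The interferon regulatory factor Irf7 rose to 2.55 to 2.82 FPKM in OE libraries, against 0.336 to 0.586 FPKM in WT libraries (log2 difference 1.37, adjusted p = 7.00e-07 by limma). The adaptor Traf5 rose by 1.07 and Irf1 by 0.42, whereas Irf3, the factor directly downstream of TBK1, fell by 0.28, as did the scaffold Tank, and the adaptor Traf2 fell by 0.18. Tbk1 itself had 18.3 FPKM in OE and 18.6 FPKM in WT cells on average (adjusted p = 0.667 by limma).

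Of 8 tested genes of the endosomal TLR machinery 2 rose, the chaperone Hsp90b1 (0.41) and the TLR3 adaptor Ticam1 (0.25), and 1 fell, the adaptor Myd88 (-0.24), which did not pass without OE library 2 (adjusted p = 0.0705) or in the fit without a filter (0.0693). Ticam1 had 8.36 to 8.51 FPKM in OE libraries and 6.33 to 7.65 FPKM in WT libraries. The receptors Tlr7, Tlr8, Tlr9 and Tlr13 stood at 0.0463 FPKM or less in every MC38 library.

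Partners of PKR and of the OAS enzymes had 8 of 18 higher and 4 lower. All 8 OAS genes listed, which make or resemble the synthetases of the RNase L activator, were higher in every OE library than in any WT library, with a sum of 25.8 to 26.3 FPKM in OE and 4.97 to 5.74 FPKM in WT, beside 25.5% of all tested genes wholly above WT. Only 4 of them were tested, since Oas1b, Oas1g, Oas2 and Oasl1 averaged under 1 FPKM over the line. They have close paralogs among which reads may be shared. Oas3 rose by 1.78, Oasl2 by 1.73 and Oas1a by 1.71 on the log2 scale. Ppp1r15a, the stress-induced subunit that directs dephosphorylation of the PKR substrate, fell to 35.3 to 37.7 FPKM in OE libraries, against 66.5 to 81.1 FPKM in WT libraries (-1.03, adjusted p = 9.15e-07 by limma). The PKR inhibitor Tarbp2 fell by 0.20. Eif2s1, which encodes that substrate, fell by 0.11 but did not pass without any 1 of 5 libraries (adjusted p of up to 0.11, without OE library 1; the others were OE library 2 and WT libraries 1, 3 and 4). It also did not pass with a common total (0.102) or without a filter (0.056).

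Of 7 tested death pathway partners of ZBP1, 3 rose and 1 fell. The pore-forming Gsdmd rose by 0.74, the necroptosis effector Mlkl by 0.26 and Casp8 by 0.23, and Casp1 fell by 0.57. Ripk3, the kinase through which ZBP1 starts necroptosis, was at or under 0.0468 FPKM in every MC38 library, so it was listed near 0 in the cells in which Zbp1 rose.

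Interferon genes themselves were at or near 0. Of 10 interferon genes 7 were at 0 in every MC38 library, and Ifnb1 reached 0.0766 FPKM in 1 OE library and 0.108 FPKM in 1 WT library and was 0 in the other 5. Ifne had 0.0436 FPKM in WT library 3 and 0.185 FPKM in WT library 4, and Ifng had 0.0429 FPKM in OE library 1. Both were at 0 in the remaining MC38 libraries. Among 4 tested genes of that list 2 rose, the chemokines Ccl5, to 9.02 to 9.90 FPKM in OE libraries against 1.50 to 2.21 FPKM in WT libraries, and Cxcl10 (0.78). The interferon receptor chain Ifnar2 fell by 0.32. Ifnar1 averaged 15.4 FPKM in OE and 15.6 FPKM in WT cells (adjusted p = 0.748 by limma).

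**Figure D5:**
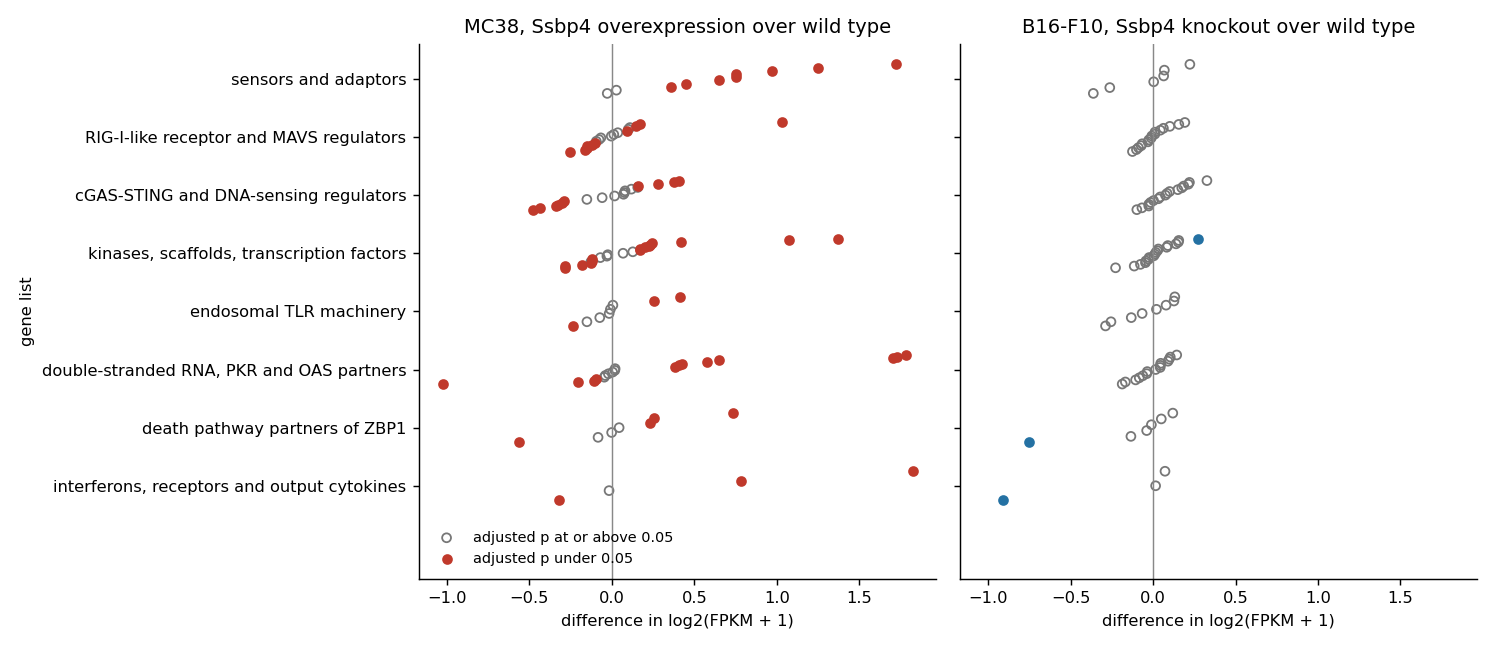
Difference in log2(FPKM + 1) of every tested gene of the members and of the 7 wider lists, between Ssbp4 OE and WT in MC38 and between Ssbp4 KO and WT in B16-F10, on a common scale; filled points passed an adjusted p of 0.05. In MC38 8 members lie to the right of 0 while the wider lists spread to both sides, and in B16-F10 3 genes of the wider lists are filled.

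In B16-F10 83 of the 120 wider genes were tested, of which 1 rose, 2 fell and 80 did not pass, beside 2.23% of all tested genes called. The subunit Nfkb1 rose to 27.6 to 31.1 FPKM in KO libraries, against 24.1 to 24.5 FPKM in WT libraries (log2 difference 0.27, adjusted p = 0.0307 by limma). The inflammasome adaptor Pycard fell to 5.47 to 10.2 FPKM in KO libraries, against 12.0 to 15.2 FPKM in WT libraries (-0.75, adjusted p = 0.0494 by limma). The chemokine Cxcl10 fell to 2.32 to 4.94 FPKM in KO libraries, against 6.20 to 7.32 FPKM in WT libraries (-0.91, adjusted p = 0.0280 by limma). Each of these calls was lost on leaving out any 1 library other than KO library 4, with adjusted p of up to 0.132 for Nfkb1, 0.163 for Pycard and 0.114 for Cxcl10. Without a filter Pycard (0.122) and Cxcl10 (0.0759) did not pass either. Pycard, which lay just under the threshold, lost its call in 13 of 17 alternatives, among them a pseudocount of 0.1 (0.0507), filters of 0.1 FPKM (0.0581) and 5 FPKM (0.0509) and the robust variance model (0.0506).

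Lists without a call in B16-F10 are represented by their most abundant genes, none of which passed. Pcbp2 had 482 to 534 FPKM in KO and 500 to 554 FPKM in WT libraries, and Ywhae 405 to 423 FPKM and 406 to 477 FPKM. Banf1, which competes with cGAS for DNA, had 98.0 to 109 FPKM in KO and 90.0 to 122 FPKM in WT libraries, and Surf4 129 to 143 FPKM and 126 to 136 FPKM. Dhx9 had 92.0 to 102 FPKM in KO and 103 to 112 FPKM in WT libraries, which do not overlap, with adjusted p = 0.104 by limma and 0.0366 with library weights, and Eif2s1 had 60.8 to 66.7 FPKM and 66.6 to 70.6 FPKM. Hsp90b1 had 560 to 684 FPKM in KO and 592 to 878 FPKM in WT libraries, and Irak1 40.7 to 43.1 FPKM and 34.6 to 41.9 FPKM. All 10 interferon genes were at 0 in every B16-F10 library. The 8 OAS genes summed to 0.0769 to 0.351 FPKM in KO libraries and 0.189 to 0.405 FPKM in WT libraries, Irf7 stayed at or under 0.328 FPKM, and Ddx60 at or under 0.0346 FPKM.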

How the data were processed

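Libraries were made from polyA RNA with a stranded kit, per the labels' protocols. The authors deposited 1 table of FPKM per gene for each line; the submitters' processing notes name GRCm39 and DESeq2 without roles, and no source used here gives the aligner, counter or annotation. Columns were matched to samples by library name, with 0 left over, and summed to between 482580 and 511160. Depth was estimated from low values of single-transcript genes (GENCODE M21 lengths): 82.6 to 86.6% lay within 0.1 of a whole number of fragments, too few to recover counts, so no count model was used. By approximate counts of single-transcript genes, rounded from these same estimates, no pair of replicates agreed within sampling noise (chi-square over its degrees of freedom 5.89 to 31.5). Since such counts are inexact, this is a rough check only. Each replicate counted once.

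Each line was tested on its own with limma 3.58.1 (R 4.3.3) on log2(FPKM + 1) (mean-variance trend, genes with a mean of at least 1 FPKM, Benjamini-Hochberg adjustment over all tested genes, threshold 0.05), without a block; the code was tested on simulated data. The tables of the lines were deposited separately and not tested against each other. Replicate numbers did not pair libraries (correlation of same-numbered deviations -0.298 to 0.165). Besides all members, Ssbp4 and Ifnb1, genes of the wider lists were named as up to 3 highest and 3 lowest calls per list, or the 2 most abundant where none was called; other named genes were chosen after their values were seen. The members and lists were chosen with earlier results of these data known. Whether counting used strand is not given; Cgas, Dhx58, Eif2ak2 and Tlr3 overlap genes of the opposite strand over 141 to 381 exon bases in GENCODE M21. Alternatives were the pseudocount, filter, scaling, variance model, library weights, replicate block and leaving out each library. Promoter sequences are from RefSeq (GRCm38.p6). Figures used matplotlib 3.10.9 in Python 3.11.15.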

Additional observations from a re-analysis of the deposited data

Results flagged for a closer look

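Of 30 groups of 4 libraries examined, 2 had a library far from the other 3; chance flags about 1 in 20 groups. Dhx58 stood at 1.23 FPKM in wild-type B16-F10 library 4, against 0.776 to 0.852 FPKM in the other wild-type libraries, a gap of 0.832 of the range. Tlr3 stood at 4.07 FPKM in B16-F10 KO library 2, against 3.45 to 3.55 FPKM in the other KO libraries, a gap of 0.831 of the range. Tlr3 remained below every wild-type library with this value, the lowest of which was 4.16 FPKM.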

How the results depend on the processing

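In MC38 the 8 called members kept direction and call, and Mavs and Cgas stayed uncalled with their direction, in all 155 values from 16 alternatives; the highest adjusted p of a called member was 0.0166, for Sting1 without a filter. With a filter of 5 FPKM 5 members were tested and 3 were called, because fewer were tested. With the replicate block 8 members were called, and the numbers do not pair the libraries; of the wider genes named, Cyld (0.123), Itch (0.141), Traf2 (0.0762), Myd88 (0.0665) and Eif2s1 (0.144) did not pass with it. In B16-F10 the number of genes called, 243, was 140 with a filter of 0.1 FPKM, 73 without a filter, 776 with library weights, 12 with the replicate block and 23 to 414 on leaving out 1 library; the cause was not tested. Of the genes called, 59.7% were higher in KO than in WT, and this share was 73.1% with a common total and 39.8% with median-of-ratios factors. Members called there were 0, and 1, Trim25, with a filter of 0.1 FPKM and without a filter, where that gene enters; 0 were called on leaving out any library. Wider genes called, 3, were 1 without a filter, 5 with library weights, 0 with the replicate block and 0 to 5 on leaving out 1 library. Without a filter the call of Trim25 was lost at a pseudocount of 0.1 (log2 difference -1.05, adjusted p = 0.0641) and a common total (-0.53, 0.0552), alternatives chosen after seeing the data. Of 99 values for tested B16-F10 members 91 kept direction and call and 8 changed sign, all near 0 and uncalled: Mavs was -0.019 with median-of-ratios factors and -0.038 to 0.038 on leaving out 1 library, Ddx58 was -0.057 with library weights and -0.036 to 0.18, and Eif2ak2 was -0.0018 to 0.16. None of 100 recomputed wild-type levels moved by more than 1 SD. Depth limits Zbp1 in B16-F10, at 0.0332 FPKM or less.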
